A study of Mus musculus with 2 samples.

Results

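The transition from G1 into S phase and the copying of DNA were examined through 41 genes in mouse liver. The genes were chosen by symbol: a gene was included when the array carried a probe under its symbol or an unambiguous synonym, and all 41 had at least 1 probe, out of 22803 genes named on the array. Of these, 33 were read by 1 probe, 7 by 2 probes and 1, Cdk4, by 3 probes.

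A resting cell is pushed into G1 when growth signals raise the D-type cyclins, which activate CDK4 and CDK6 to phosphorylate the retinoblastoma protein Rb1. Phosphorylated Rb1 releases E2F transcription factors, which drive genes for cyclin E and for the replication machinery. Origins are licensed when Cdc6 and Cdt1 load the Mcm2 to Mcm7 ring onto DNA, and the ring becomes an active helicase once Mcm10, Cdc45 and the GINS complex join it. Hepatocytes of the adult liver are mostly quiescent and re-enter this sequence after injury or loss of tissue.

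Dual-colour arrays were hybridised with liver RNA of C57BL/6 mice, 1 array for wild-type animals and 1 for animals carrying an AID transgene. AID, activation-induced cytidine deaminase, is a DNA-mutating enzyme of B cells. In each case Cy5 carried the liver of an animal given thioacetamide, a liver toxin, in its drinking water for 6 months, and Cy3 carried an untreated liver of the same genotype. There was 1 array per genotype with no dye swap, so dye and treatment cannot be told apart, no value has a replicate and no p-value is given. The sources used here give neither the promoter driving the transgene nor the animals' sex, nor whether a channel held a single animal or a pool.

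The sequences below show what was read for the 6 genes that reached a 2-fold difference in any comparison, each of which rested on a single probe of 60 bases. The first 30 bases of each probe are given 5′ to 3′ as deposited, with the position of the whole probe in mm9 from the authors' annotation. The part of the transcript in which each probe lies was not analysed here.
Ccnd1, chr7:152116202-152116261, minus strand: ttaatctgttaggttctagtgttccgtctt
Cdkn2c, chr4:109333508-109333567, minus strand: cagtgtctgacttggagactttgttttaaa
E2f8, chr7:56121860-56121919, minus strand: tgttgcagtctgtctttttgtagagtttac
Prim1, chr10:127466952-127467011, plus strand: ctttcgagaagtaatttatgtcaaggagac
Mcm10, chr2:4911785-4911844, minus strand: gctctcctcacctttagtgtgggtttattt
Rrm2, chr12:25398824-25398883, plus strand: ctagcttcctcatgaactgacataaccctg

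E2F factors bind short GC-rich motifs near the start sites of replication genes, and the promoters of the members were therefore searched. Motifs searched were TTTCCCGC, TTTCGCGC, TTTGCCGC and TTTGGCGC on both strands, in windows of 250 bases before to 50 bases after each start in RefSeq's GRCm38.p6 table. A window was found for 31 of the 41 genes, and 12 of these 31 (38.7%) held a motif, against 2.6% of 27025 genes in the same table. The genes with a motif were Cdc6, Cdk2, Cdt1, E2f2, Lig1, Mcm3, Mcm5, Mcm6, Mcm7, Pola1, Pold1 and Rfc3. A match describes these letters only and is no evidence of binding. The 3 windows shown belong to the genes with a motif that had the highest mean treatment ratio over the arrays, with motif bases in capitals.
Cdt1, chr8:122567765-122568064, plus strand, TTTGGCGC: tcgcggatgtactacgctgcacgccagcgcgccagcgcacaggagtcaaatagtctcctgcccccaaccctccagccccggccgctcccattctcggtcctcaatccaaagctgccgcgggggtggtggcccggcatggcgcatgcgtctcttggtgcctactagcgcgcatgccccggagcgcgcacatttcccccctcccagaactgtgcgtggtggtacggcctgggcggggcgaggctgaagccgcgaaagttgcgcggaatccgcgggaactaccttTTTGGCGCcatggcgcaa
E2f2, chr4:136172024-136172323, plus strand, TTTGGCGC: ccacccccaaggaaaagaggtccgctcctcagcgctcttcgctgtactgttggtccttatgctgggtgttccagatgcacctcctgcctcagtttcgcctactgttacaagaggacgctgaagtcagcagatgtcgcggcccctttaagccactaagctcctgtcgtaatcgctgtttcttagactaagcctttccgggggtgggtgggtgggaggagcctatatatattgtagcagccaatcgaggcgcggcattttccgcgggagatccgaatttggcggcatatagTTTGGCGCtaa
Mcm6, chr1:128359656-128359955, minus strand, TTTGGCGC in 2 places with an overlapping TTTCGCGC on the opposite strand at the first: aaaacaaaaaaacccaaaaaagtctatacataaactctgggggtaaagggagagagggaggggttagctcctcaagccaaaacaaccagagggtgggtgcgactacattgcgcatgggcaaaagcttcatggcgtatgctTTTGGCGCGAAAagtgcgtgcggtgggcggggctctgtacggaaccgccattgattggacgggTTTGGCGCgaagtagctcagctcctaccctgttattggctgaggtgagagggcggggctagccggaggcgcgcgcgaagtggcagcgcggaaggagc
On the wild-type array the 12 genes with a motif had a median log2 treatment ratio of 0.50, against 0.10 for the 19 genes whose window held none. On the AID transgenic array 11 measured genes with a motif had a median of 0.17 and the 19 without 0.14. The means of the same sets were 0.35 and 0.15 in wild-type and 0.35 and 0.10 in AID transgenic liver. The narrower gap of the medians on the second array was not seen in the means. The 19 genes without a motif include Mcm10, at -1.78 and -1.35, which lowers their means on both arrays.

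Of 43020 non-control spots per array, 53.9% to 56.0% were well above background in Cy3 and 68.4% to 68.8% in Cy5. Of the 41 members, 37 were well above background in all 4 channels and none was saturated. Ccne2, which encodes cyclin E2, was above background in no channel, Cdc6 in 1, Cdk6 in 2 and Gins2 in 3. All 8 hepatocyte markers were well above background. The treated wild-type liver differed from the other livers in sex-linked transcripts. Xist was well above background there alone, at a log2 level of 8.90, while the Y-linked Ddx3y and Eif2s3y were well above background in the other livers, at 9.98 to 10.86, but not in that one. This difference and the treatment cannot be told apart on the wild-type array, nor in the other comparisons that use the treated wild-type liver. The AID transgenic array and the comparison of untreated livers do not use it. RNA was bulk liver RNA, in which a change in the number of cells of a type cannot be told apart from a change in RNA per cell.

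Levels below are normalized log2 intensities of a gene's probes in each channel, and a ratio is treated over untreated on the log2 scale. The value after ± is the error that the scanner software gives for its own log ratio of the spot, a technical error only. A 2-fold difference, a log2 value of 1 or more or of -1 or less, was called for genes well above background in a channel used.

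After thioacetamide, 4 of 40 measured members were at least 2-fold higher in the wild-type liver, Ccnd1, Cdkn2c, E2f8 and Prim1, and 1, Mcm10, was at least 2-fold lower. Among all genes measured there, 1.86% were at least 2-fold higher and 1.64% lower. In the AID transgenic liver none of 39 measured members was 2-fold higher, where 1.22% of all genes were, and Mcm10 was again 2-fold lower, where 0.947% were. The median ratio of the measured members was 0.29 in wild-type and 0.16 in AID transgenic liver, beside 0.03 over all measured genes on each array. Of the 37 members above background in all channels, 21 had a ratio above 0 on both arrays, 6 below 0 on both and 10 had opposite signs. Ratios exceeded 2 scanner errors upward on both arrays for 10 members, Ccnd1, Rb1, E2f2, Myc, Cdt1, Mcm3, Mcm4, Mcm5, Mcm6 and Prim1, and downward on both for Mcm10. The share of all genes that did so is not given here, so this count has no background to be read against. Rb1 passed at ratios of 0.29 and 0.21 because its error, over 10 spots, was only 0.07 on each array.

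**Figure D1:**
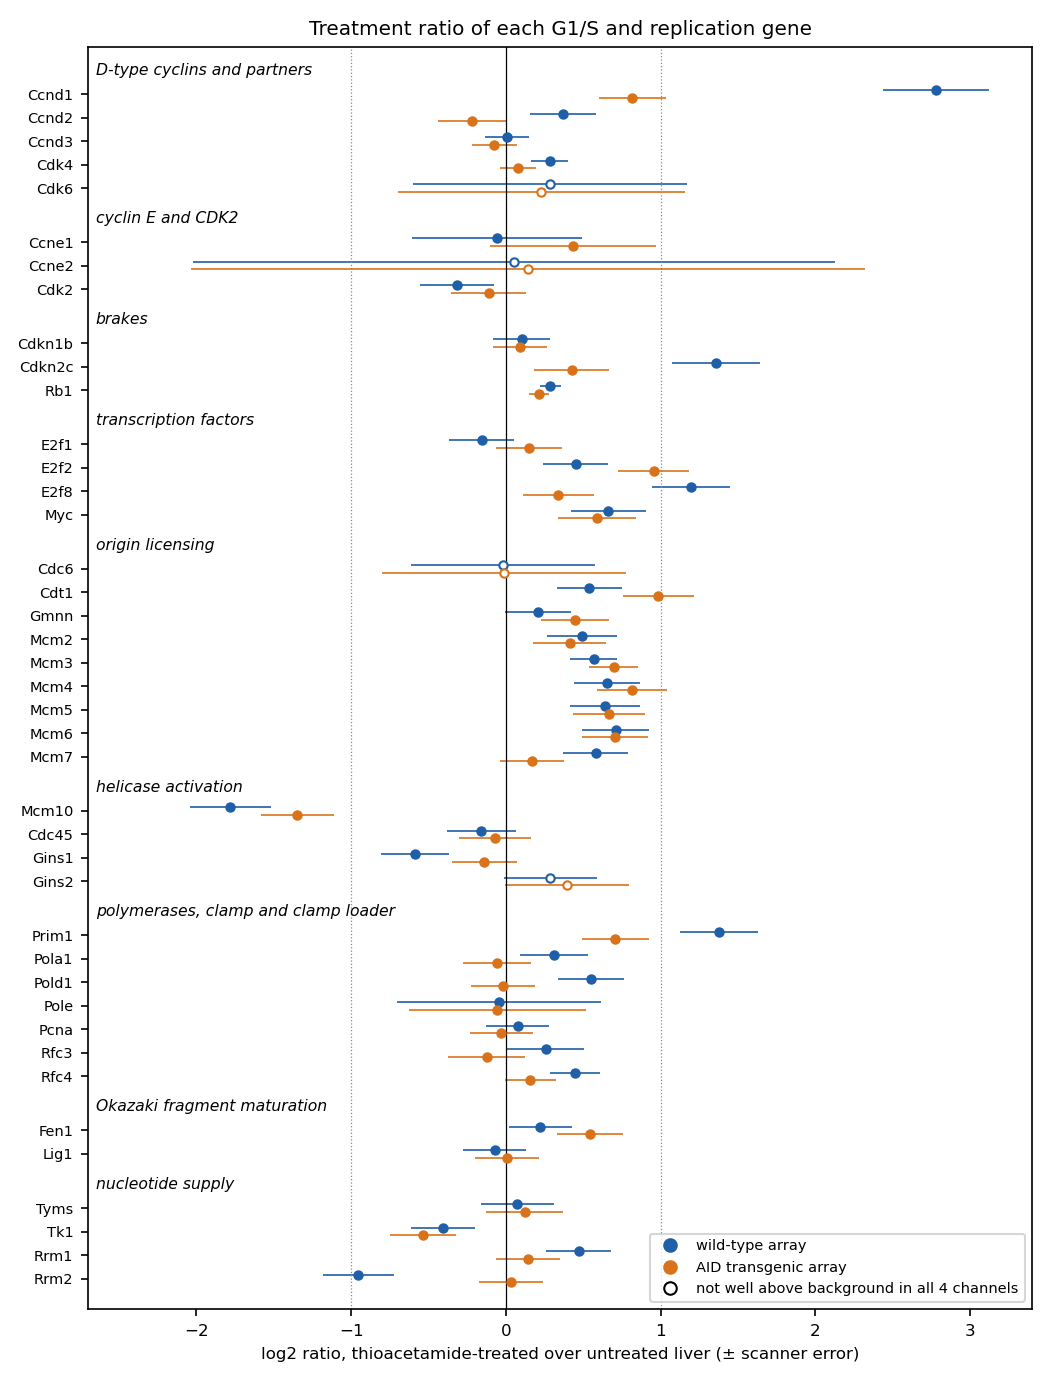
Log2 ratio of treated over untreated liver (x axis) for each of the 41 genes, grouped by role, on the wild-type (blue) and AID transgenic (orange) arrays. Points are 1 array each, bars the scanner error, open points genes not well above background in all 4 channels, and dotted lines 2-fold. Ccnd1 on the wild-type array (2.78) lies farthest to the right and Mcm10 (-1.78) farthest to the left. With median centring in place of loess, 12 of the 37 genes above background in all channels changed sign on at least 1 array.

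These signs depended on the loess step. With each array centred on its median and no loess, the median ratio of all measured genes moved to 0.35 (wild-type) and 0.34 (AID transgenic), and that of the members to 0.76 and 0.61. Ccnd2, Ccnd3, Cdk2, E2f1, Cdc45, Gins1, Pola1, Pold1, Pcna, Rfc3, Lig1 and Tk1 then changed sign on at least 1 array. Measured against the median of all genes, 24 of the 37 members were above it on both arrays under that setting and 21 under loess. Among all genes at 2-fold on the wild-type array, 53.1% were higher under loess and 94.4% without it, and on the AID transgenic array 56.2% and 96.2%.

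Ccnd1 encodes cyclin D1, the D-type cyclin that growth signals induce when hepatocytes leave quiescence. Its log2 level was 9.31 in untreated and 12.09 in treated wild-type liver, and 10.01 in untreated and 10.83 in treated AID transgenic liver. The treated wild-type liver was the highest of the livers and the untreated wild-type liver the lowest, so both AID transgenic livers lay between them. The ratio was 2.78 ± 0.34 in wild-type, or 6.87-fold, and 0.82 ± 0.22 in AID transgenic liver. The difference, AID transgenic minus wild-type, was -1.96 ± 0.41, and it ran from -2.13 to -1.96 over the settings tried. It had a part on each side: AID transgenic over wild-type was 0.70 in untreated and -1.26 in treated liver.

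The other D-type cyclins and their kinases stayed under 2-fold on both arrays. Ccnd2, cyclin D2, was at 7.46 and 7.83 in untreated and treated wild-type liver and at 7.73 and 7.51 in AID transgenic liver, a ratio of 0.37 ± 0.21 and -0.22 ± 0.22. Its ratios were of opposite sign and within 2 scanner errors of 0, and the negative one became positive without loess. Ccnd3, cyclin D3, was at 10.83 and 10.84 in wild-type and 10.89 and 10.81 in AID transgenic liver, the flattest of the D-type cyclins across the 4 livers. Cdk4 had ratios of 0.28 ± 0.12 and 0.08 ± 0.12, averaged over 3 probes. Cdk6 was above background in the treated livers alone, with ratios of 0.28 ± 0.89 in wild-type and 0.23 ± 0.93 in AID transgenic liver, within the scanner error on both arrays.

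Cyclin E and its kinase CDK2 drive the step after Rb1 is phosphorylated. Ccne1, cyclin E1, was at 7.05 and 6.99 in wild-type and 6.95 and 7.38 in AID transgenic liver, with ratios of -0.06 ± 0.55 and 0.43 ± 0.54. Of its 2 probes, the 1 above background in all channels read -0.26 and 0.64, and the other was above background in the treated AID transgenic liver alone. Cdk2 was at 7.24 and 6.93 in wild-type and 7.11 and 7.0 in AID transgenic liver, ratios of -0.32 ± 0.24 and -0.11 ± 0.24. Neither gene exceeded 2 scanner errors on either array, but the Ccne1 error is that of both probes, the dim one included. No error is given here for the brighter probe alone. The difference of the Ccne1 ratios, AID transgenic minus wild-type, ran from 0.49 to 0.90 over the settings tried.

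Among the brakes on G1 the inhibitor Cdkn2c stood out. Cdkn2c encodes p18, an inhibitor of CDK4 and CDK6. It was at 7.0 and 8.35 in untreated and treated wild-type liver and at 7.09 and 7.52 in AID transgenic liver. The untreated livers were close to each other and the treated wild-type liver lay above the rest. The ratio was 1.36 ± 0.29 (2.56-fold) in wild-type and 0.43 ± 0.24 in AID transgenic liver, a difference of -0.93 ± 0.38, which passed 2-fold under 3 of the settings, at -1.07 to -1.27. Cdkn1b, which encodes the CDK inhibitor p27, was at 8.24 and 8.34 in wild-type and 8.42 and 8.51 in AID transgenic liver, and neither ratio exceeded its scanner error. Rb1 was at 8.15 and 8.44 in wild-type and 8.22 and 8.44 in AID transgenic liver. It was the only member whose probe was printed at 10 spots, and over these spots its ratio was 0.29 ± 0.07 (SD, 10 spots) in wild-type and 0.21 ± 0.06 (SD, 10 spots) in AID transgenic liver. All 10 spots were above 0 on both arrays, from 0.10 to 0.37. These spots share the same RNA and measure the array's precision, not that between animals.

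Of the transcription factors, E2f8, an atypical E2F of the repressor class, was higher in the treated wild-type liver. Its levels were 7.36 and 8.56 in untreated and treated wild-type liver and 7.18 and 7.52 in AID transgenic liver. The treated wild-type liver was again above the rest, and the ratios were 1.20 ± 0.25 (2.29-fold) and 0.34 ± 0.23. E2f2, an activator E2F, had the larger ratio in AID transgenic liver, but the difference of 0.50 ± 0.31 was within 2 scanner errors. It was at 7.84 and 8.29 in wild-type and at 8.23 and 9.19 in AID transgenic liver, so the treated AID transgenic liver was the highest. The ratio was 0.45 ± 0.21 in wild-type and 0.95 ± 0.23 in AID transgenic liver, and the second passed 2-fold with an offset of 0, with the scanner's processed signals and without loess. E2f1, the E2F first linked to Rb1, was at 7.89 and 7.73 in wild-type and 7.62 and 7.77 in AID transgenic liver, ratios of -0.16 ± 0.21 and 0.15 ± 0.21, both within the scanner error. Myc, a growth-driving transcription factor, was alike on the arrays, at 6.93 and 7.59 in wild-type and 6.96 and 7.54 in AID transgenic liver. Its ratios were 0.66 ± 0.24 and 0.59 ± 0.25, and with the scanner's processed signals both were above 2-fold, at 1.03 and 1.12.

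**Figure D2:**
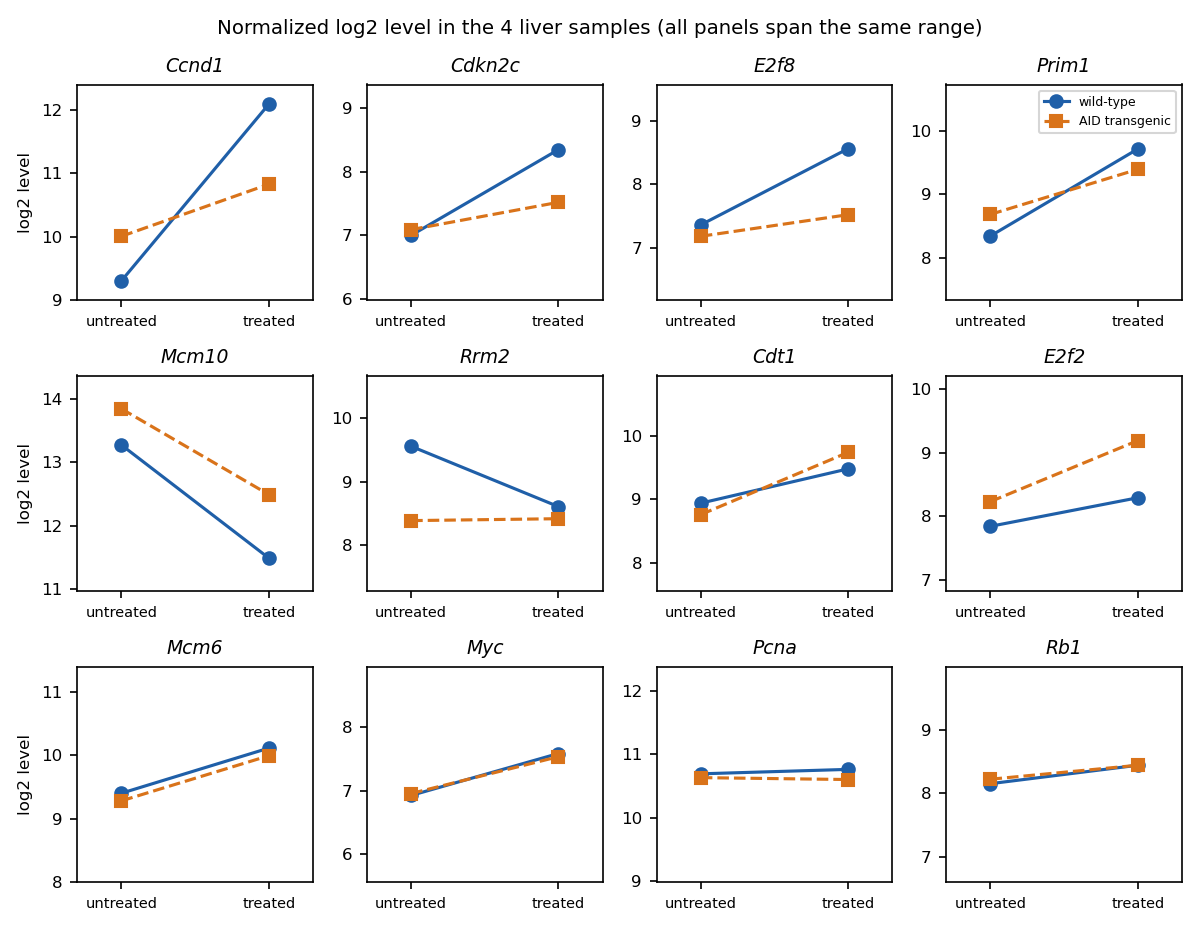
Normalized log2 level (y axis, all panels spanning the same range) of 12 genes in untreated and treated liver, 1 value per liver, wild-type in blue circles and AID transgenic in orange squares. For Ccnd1, Cdkn2c and E2f8 the treated wild-type liver lies above the other 3, for E2f2 the treated AID transgenic liver does, and for Mcm10 both treated livers lie below both untreated ones. Pcna is nearly level, and Rb1 is slightly higher in both treated livers. Levels are not comparable between panels.

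The origin licensing genes had ratios above 0 on both arrays, apart from the dim Cdc6, which was not measured in AID transgenic liver. For the other 8 this held under each of the 6 settings tried. The median of the licensing genes was 0.57 over the 9 measured in wild-type and 0.68 over the 8 measured in AID transgenic liver, beside 0.03 over all genes, and none reached 2-fold. The 6 subunits of the Mcm2 to Mcm7 ring had a mean ratio of 0.61 ± 0.08 (SD over subunits) in wild-type, from 0.49 for Mcm2 to 0.71 for Mcm6. In AID transgenic liver the mean was 0.58 ± 0.24 (SD over subunits), from 0.17 for Mcm7 to 0.81 for Mcm4. The subunits were spread more widely in AID transgenic liver, where Mcm7 was the lowest. Without loess the 6 ratios stayed above 0 on both arrays, but the median of all genes was then itself 0.35 and 0.34. Of the 6, 5 and 4 passed 2-fold, where 10.4% and 8.14% of all genes were 2-fold higher.

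The levels of Mcm2, Mcm5 and Mcm6 showed a similar step in each genotype. Mcm2 was at 7.26 and 7.75 in untreated and treated wild-type liver and at 7.13 and 7.55 in AID transgenic liver. Mcm5 was at 7.42 and 8.05 in wild-type and at 7.28 and 7.94 in AID transgenic liver. Mcm6 was at 9.40 and 10.11 in wild-type and at 9.28 and 9.99 in AID transgenic liver. In each of these genes both treated livers were above both untreated livers. Mcm3 and Mcm4 followed, with ratios of 0.57 ± 0.15 and 0.65 ± 0.22 in wild-type and 0.70 ± 0.16 and 0.81 ± 0.22 in AID transgenic liver. Mcm7 had a ratio of 0.58 ± 0.21 in wild-type and 0.17 ± 0.21 in AID transgenic liver.

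The loaders of the ring and their inhibitor were less alike. Cdt1, which loads the ring with Cdc6, was at 8.94 and 9.48 in wild-type and 8.76 and 9.74 in AID transgenic liver. Both treated livers were above both untreated ones, with ratios of 0.54 ± 0.21 and 0.99 ± 0.23, and the second passed 2-fold with an offset of 0, at 1.07, with processed signals and without loess. Gmnn encodes geminin, which binds Cdt1 and blocks a second round of licensing. It was at 7.64 and 7.84 in wild-type and 7.57 and 8.02 in AID transgenic liver, ratios of 0.21 ± 0.21 and 0.45 ± 0.22. Cdc6 was at 6.24 and 6.22 in wild-type and at 6.15 and 6.14 in AID transgenic liver, and above background in the treated wild-type liver alone. Its ratio of -0.02 on the wild-type array counts in the medians above but compares levels near background.

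Mcm10, which joins the loaded ring and is needed to start unwinding, went against the ring on both arrays. Its levels were 13.27 and 11.49 in untreated and treated wild-type liver and 13.84 and 12.49 in AID transgenic liver. Both treated livers were below both untreated livers. The ratio was -1.78 ± 0.26 in wild-type and -1.35 ± 0.24 in AID transgenic liver. Without loess the direction stayed, at -1.07 and -0.63, and the second was then under 2-fold. In untreated liver the single Mcm10 probe was brighter than any other member, and near the hepatocyte marker Cps1 at 13.34 in wild-type and 13.44 in AID transgenic liver. Whether this probe also binds another transcript was not tested. The rest of the helicase activation genes were under 2-fold. Cdc45 was at 7.30 and 7.14 in wild-type and 7.22 and 7.15 in AID transgenic liver, a change within the scanner error on both arrays. Gins1, a GINS subunit, had ratios of -0.59 ± 0.22 and -0.14 ± 0.21. Gins2 was above background in 3 channels, with ratios of 0.29 ± 0.30 in wild-type and 0.40 ± 0.40 in AID transgenic liver, within the scanner error on both arrays.

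Prim1, the catalytic subunit of primase, which makes the RNA primers of DNA synthesis, was higher in both treated livers. It was at 8.34 and 9.71 in wild-type and at 8.68 and 9.39 in AID transgenic liver. The ratios were 1.38 ± 0.25 (2.60-fold) and 0.71 ± 0.22, each over 2 scanner errors. The remaining genes for polymerases, the sliding clamp and its loader were under 2-fold. Pcna, the sliding clamp, was at 10.69 and 10.76 in wild-type and 10.63 and 10.60 in AID transgenic liver, nearly level across the 4 livers. Pole, the catalytic subunit of the leading-strand polymerase, was at 6.89 and 6.84 in wild-type and 6.80 and 6.75 in AID transgenic liver, and only 1 of its 2 probes was above background. Pold1, the catalytic subunit of the lagging-strand polymerase, had ratios of 0.55 ± 0.21 in wild-type and -0.02 ± 0.21 in AID transgenic liver. Pola1, the polymerase that extends primers, had 0.31 ± 0.22 and -0.06 ± 0.22, and Rfc3, a clamp loader subunit, 0.26 ± 0.25 and -0.12 ± 0.25. In this role group 6 of 7 ratios were above 0 in wild-type liver, with a median of 0.31, and 2 of 7 in AID transgenic liver, with a median of -0.03. Without loess 6 of 7 were above 0 on both arrays, with medians of 0.76 and 0.43. All 7 differences, AID transgenic minus wild-type, were below 0, with a median of -0.37. This count was 6 of 7 with an offset of 0 and 7 of 7 under the other settings, and 1 of the 7, Prim1, exceeded 2 scanner errors. The 2 probes of Rfc4, a clamp loader subunit, disagreed in size, at 0.11 and 0.79 in wild-type liver and 0.03 and 0.29 in AID transgenic liver.

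Okazaki fragments are trimmed by the nuclease Fen1 and joined by the ligase Lig1. Fen1 was at 9.17 and 9.39 in wild-type and 9.25 and 9.80 in AID transgenic liver, ratios of 0.22 ± 0.21 and 0.54 ± 0.21. The treated AID transgenic liver was the highest. Lig1 was at 9.41 and 9.34 in wild-type and 9.40 and 9.41 in AID transgenic liver, within the scanner error on both arrays.

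The genes that supply deoxynucleotides did not move together. Rrm2, the regulated small subunit of ribonucleotide reductase, was at 9.56 in untreated and 8.61 in treated wild-type liver, and at 8.39 and 8.42 in AID transgenic liver. The untreated wild-type liver was the high one, and the other livers lay from 8.39 to 8.61. The ratio was -0.95 ± 0.23 in wild-type, and -1.08 to -1.10 with an offset of 0 or with processed signals, and 0.03 ± 0.21 in AID transgenic liver. Its large-subunit partner Rrm1 was at 8.23 and 8.70 in wild-type and 8.41 and 8.55 in AID transgenic liver, ratios of 0.47 ± 0.21 and 0.14 ± 0.21. Tk1, the thymidine kinase of cycling cells, was at 10.73 and 10.32 in wild-type and 10.49 and 9.96 in AID transgenic liver, ratios of -0.41 ± 0.21 and -0.53 ± 0.21, and without loess both were positive, at 0.27 and 0.13. Tyms, which makes thymidylate, was at 7.0 and 7.08 in wild-type and 6.97 and 7.09 in AID transgenic liver, within the scanner error on both arrays.

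The genotypes were compared through the difference of the treatment ratios and, in the same dye, between untreated and between treated livers. These comparisons share samples, since the difference of ratios is the treated comparison minus the untreated one. For the difference of ratios, 1 of 40 measured members, Ccnd1, was at least 2-fold lower in AID transgenic liver and none higher, where 1.05% of all genes were lower and 0.929% higher. The median difference was -0.01, and 21 of the 37 members above background in all channels were below 0 and 16 above. The difference exceeded 2 scanner errors for 5 members, and the share of all genes that did so is not given here. The 5 members were Ccnd1, Cdkn2c, E2f8 and Prim1, which were lower in AID transgenic liver, and Rrm2, which was higher, at 0.99 ± 0.31.

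In untreated liver the members differed little between genotypes. Of 38 measured members, Rrm2 was 2-fold lower in AID transgenic liver, at -1.18, where 0.294% of all genes were lower, and none was 2-fold higher, where 0.308% were. Ccnd1 at 0.70 and Mcm10 at 0.57 were the members next in size. In treated liver 1 of 40 members, Mcm10, was 2-fold higher in AID transgenic liver, at 1.01, where 0.738% of all genes were, and 2, Ccnd1 at -1.26 and E2f8 at -1.03, were 2-fold lower, where 0.761% were. Mcm10 fell under 2-fold without normalization between the arrays, at 0.82. E2f2 was 0.40 higher in AID transgenic liver without treatment and 0.90 higher with it. Of the 6 ring subunits, Mcm4 was level between the treated livers and the other 5 were at -0.05 to -0.23 in AID transgenic liver.

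**Figure D3:**
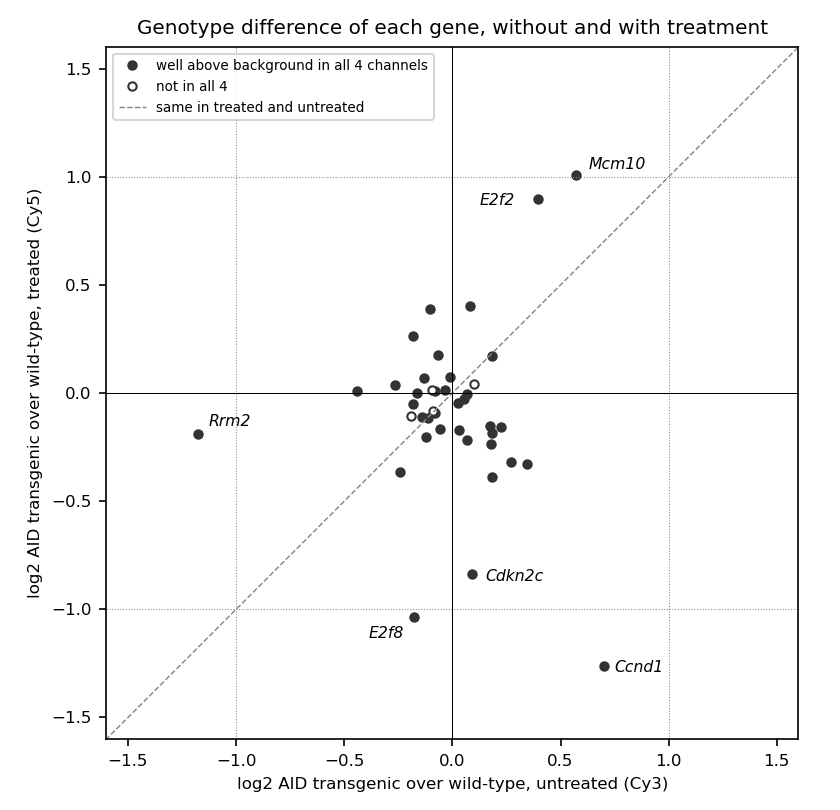
Log2 ratio of AID transgenic over wild-type liver in untreated (x axis, Cy3) and treated (y axis, Cy5) animals for the 41 genes, 1 array per genotype. Open points were not well above background in all 4 channels, dotted lines mark 2-fold and the dashed line equal values. Most genes lie near the centre, Rrm2 lies to the left at -1.18, Ccnd1 at 0.70 and -1.26, and E2f2 and Mcm10 in the upper right.

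Related genes outside the 41 were read from 6 lists. Of 41 other replication fork genes, 37 were measured in wild-type and 38 in AID transgenic liver, none was at 2-fold in either direction, and the medians were 0.13 and 0.05. None of the other RB and E2F family genes or of the other nucleotide supply genes reached 2-fold on either array, with medians of -0.06 and 0.08 for the first and -0.12 and -0.12 for the second. Without loess these medians were 0.23 and 0.25, and 0.42 and 0.26, and those of the fork genes 0.51 and 0.42. With processed signals 2 of the RB and E2F family genes were 2-fold higher on each array, where 9.46% and 9.09% of all genes were. Among 15 measured regulators of the G1 and S phase kinases, Cdkn1a, which encodes the CDK inhibitor p21, was 2-fold higher on both arrays, at 1.67 in wild-type and 1.47 in AID transgenic liver. Cdkn1c, which encodes the inhibitor p57, was 2-fold higher in wild-type liver at 1.24 and at -0.02 in AID transgenic liver. Of the mitogens and receptors, Egfr, the receptor of epidermal growth factor, was lower in wild-type liver at -1.78, with -0.97 in AID transgenic liver, and Il6ra and Ccn2 were at -1.04 and -1.15 in AID transgenic liver, with -0.84 and -0.47 in wild-type.

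Genes of the later cell cycle act in G2 and mitosis. In wild-type liver 5 of 16 measured, Mki67, Ccnb2, Cdc20, Plk1 and Kif20a, were at least 2-fold higher and none lower, with a median of 0.57, beside 1.86% of all genes higher. In AID transgenic liver 1 of 15, Cdc20, was 2-fold higher, beside 1.22% of all genes, with a median of 0.35, and all 15 were above 0. Mki67, whose protein marks cycling cells, was at 7.06 and 8.89 in untreated and treated wild-type liver and 7.16 and 7.98 in AID transgenic liver. Treated livers were above untreated livers in both genotypes, and the treated wild-type liver was the highest. With an offset of 0, 9 of 16 and 5 of 15 of the list were 2-fold higher, where 4.69% and 3.71% of all genes were, and with the scanner's processed signals 15 of 16 and 12 of 15, where 9.46% and 9.09% of all genes were. With processed signals 6 of 40 and 5 of 39 members were 2-fold higher. Without loess 13 of 16 of the list were above 0 in wild-type and 11 of 15 in AID transgenic liver. The median of all genes was then itself 0.35 and 0.34, so these counts do not place the list above all genes.

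**Figure D4:**
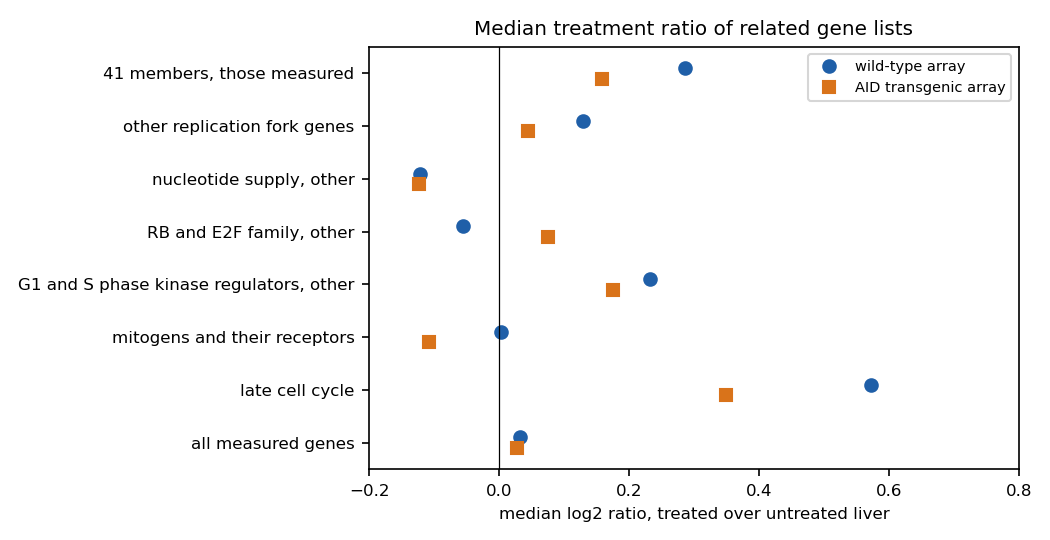
Median log2 treatment ratio (x axis) of the measured members, of 6 related gene lists and of all measured genes, on the wild-type (blue circles) and AID transgenic (orange squares) arrays. The late cell cycle list has medians of 0.57 and 0.35, the members 0.29 and 0.16, and all measured genes 0.03 on either array. Without loess the median of all genes was 0.35 and 0.34.

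Markers of other cell types moved between the livers beside these genes. The summed linear level of 8 macrophage markers was 7521 and 8129 in untreated and treated wild-type liver and 12460 and 20500 in AID transgenic liver. Marco made most of the gap between untreated livers, and without it the other 7 summed to 6450, 6311, 6232 and 10740, highest in the treated AID transgenic liver. Of the 8 cholangiocyte markers, Prom1 was 2-fold higher in treated wild-type liver and 3, Krt19, Spp1 and Prom1, were 2-fold lower in the difference of ratios, and their summed level was 1088, 1739, 1176 and 989.3 in the same order. The 8 stellate cell and myofibroblast markers summed to 4716, 5095, 6435 and 3545, and without Acta2 to 4306, 4767, 5346 and 3251. All 8 differences of ratios were below 0, beside 22 of the 40 measured members. Hepatocyte markers summed to 633700 and 513500 in wild-type and 635900 and 546000 in AID transgenic liver. The part of these cell types and of the sex-linked difference in the results was not tested. T and NK cell markers ranged from 3019 to 4098 and endothelial markers from 17260 to 20150. Their differences of ratios went the other way, above 0 for 6 of 8 T and NK cell markers and for all 6 endothelial markers. B and plasma cell markers ranged from 3262 to 4092, mostly Sdc1, with Pax5 not above background in any channel. Without Sdc1 they summed to 529.0 and 699.9 in untreated and treated wild-type liver and 566.3 and 814.7 in AID transgenic liver, and Cd79b was 2-fold higher in treated AID transgenic liver, at 1.12, with 0.77 in wild-type.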

How the data were processed

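RNA of liver was measured on 2 dual-colour Agilent arrays of design 026655, 1 per genotype. The authors deposited unprocessed intensity values, per the file headers, as mean signal and background median of each spot, and processed signals as intensity values after the scanner's own background and dye corrections. Log ratios were deposited as log10 values, Cy5 over Cy3, and their deposited error is a score of the scanner software's error model, here converted to log2. The file headers name Feature Extraction 10.7.3.1, while version 10.5.1.1 stands in the submitters' processing notes.

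Background was corrected in limma 3.58.1 (R 4.3.3) with normexp (offset 50), and signals were normalized by loess within each array, and by Aquantile between arrays for levels and same-dye comparisons. Control spots and the 197 and 207 outlier spots were left out. Spots were averaged per probe and probes per gene, and probes were named through RefSeq. Steps after this used Python 3.11.15, numpy 2.4.6 and pandas 2.3.3. The normalization was tested on simulated data with as many raised as lowered spots and a constant dye factor. Those data held no shift of most genes in the same direction, so the test cannot decide between loess and median centring. Across 399 probes with 10 spots, the median SD between spots was 0.07 log2 units on each array. Precision is limited by there being 1 array per genotype.

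The 41 members and the 15 gene lists were chosen with earlier results of these data known. The result of 1 list is not reported here. No test was run, since each genotype had 1 array. Values in every channel were given for members at 2-fold in any comparison, for a set of 20 central members, and for the highest and lowest mean ratio of each role group. Promoter windows were those of the 3 members with the highest mean ratio that held a motif. Alternatives tried were an offset of 0, processed signals, median centring without loess, the brightest probe, a filter on every channel, outlier spots kept, no normalization between arrays, and a shorter promoter window.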

Additional observations from a re-analysis of the deposited data

Results flagged for a closer look

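Rrm2, the small subunit of ribonucleotide reductase, was singled out because its treatment ratios lay on opposite sides of 0 on the arrays while their difference was over 2 scanner errors. The ratio was -0.95 in wild-type and 0.03 in AID transgenic liver, and the difference, AID transgenic minus wild-type, was 0.986. With 1 array per genotype the difference was not tested. It ran from 0.88 to 1.12 over the settings tried, and the ratio in AID transgenic liver was -0.001 with an offset of 0. The untreated wild-type liver was the high one at 9.56, so that the treated livers differed by -0.19 and the untreated livers by -1.18.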

How the results depend on the processing

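With an offset of 0, 6 members were 2-fold higher and 2 lower in wild-type liver (median 0.43). Of all genes there, 4.69% were higher and 2.44% lower. In AID transgenic liver 2 members were higher, where 3.71% of all genes were. In the difference of ratios 1 member was then higher and 3 lower, where 2.2% and 2.95% of all genes were. Between treated livers 2 were higher and 3 lower in AID transgenic liver, where 1.39% and 1.35% of all genes were. With processed signals, 6 were higher and 2 lower in wild-type liver (median 0.386), where 9.46% and 3.63% of all genes were. In AID transgenic liver 5 were higher, where 9.09% of all genes were. The difference of ratios had 1 higher and 2 lower, beside 4.69% and 5.51% of all genes. Between treated livers 2 were higher and 3 lower in AID transgenic liver, beside 2.71% and 2.69% of all genes. Without loess, 12 were higher in wild-type liver (median 0.76), where 10.4% of all genes were. In AID transgenic liver 9 were higher and 0 lower (median 0.614), where 8.14% and 0.317% of all genes were. The difference of ratios then had 3 lower, beside 1.23% of all genes. Without normalization between arrays the median genotype difference was -0.144 in untreated and -0.174 in treated livers, where that of all genes was -0.132 and -0.109.

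The other 73 of 93 counts, medians and promoter shares moved by less than 1.5 times or than the SD between spots. The motif share of 38.7% was the same in the shorter window, where all genes gave 1.9%. Of 522 recomputed values of single members, 67 moved by at least the scanner error or fell from 2-fold to under it. None that was at 2-fold changed sign. Values that rose past 2-fold within the scanner error, such as the Cdt1 ratio in AID transgenic liver, are not among the 67. Leaving out a replicate and a paired fit were not run, since each genotype had 1 array. No paired analysis was possible because no group had a second sample. Signal over background limited Ccne2, Cdc6, Cdk6 and Gins2, and the offset shrinks ratios of dim genes.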
